A study of Mus musculus with 16 samples.

Results

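The sterol and fatty acid synthesis genes followed here are 40 genes chosen by name and by known role: 7 enzymes of the mevalonate segment, 11 enzymes that turn its product into cholesterol, 5 genes that regulate this pathway, 13 enzymes that make, elongate or desaturate fatty acids, and 4 carriers or exporters of lipids. They are 40 of the 15451 genes in the deposited table of gene values and of the 35639 genes in the deposited TPM table (TPM is a level scaled to transcript length and to the library). The rule goes by name and role and uses no measured value, but the members were chosen with earlier results of these data known. RNA was sequenced from the frontonasal prominence (FNP, the medial and lateral nasal processes that form the mid-face) and the mandible of each of 8 mouse embryos dissected at E11.5, giving 16 libraries. *Srf* encodes serum response factor, a transcription factor that binds the CArG box, and the study asked what is lost from facial tissue when it is deleted in neural crest. Mutants were embryos 3, 4, 5 and 6, all *Srf* flox/flox; Wnt1-Cre. The controls were not of 1 genotype: embryos 1 and 7 were *Srf* flox/+; Wnt1-Cre, and the other controls had no Cre and were *Srf* flox/flox (embryo 2) or *Srf* flox/+ (embryo 8), so that every embryo carried at least 1 floxed allele and 2 of 4 controls also had Cre and 1 allele to lose. Wnt1-Cre acts in neural crest cells and their descendants, so epithelium, blood and endothelium in the dissected tissue keep *Srf*. Both tissues of an embryo came from the same animal, and the litter table deposited by the authors put embryos 1 to 5 (2 controls and 3 mutants) in the first litter and embryos 6 to 8 (1 mutant and 2 controls) in the second.

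Cholesterol is built from acetyl-CoA by way of mevalonate, farnesyl diphosphate, squalene and lanosterol, and fatty acids are built from the same acetyl-CoA by carboxylation, repeated condensation, elongation and desaturation. Most of these enzymes are switched on together by the sterol regulatory element binding proteins (SREBPs): when membrane sterol is low, SCAP escorts SREBP out of the endoplasmic reticulum to be cut and released, and when sterol is high the INSIG proteins hold SCAP back. The face is sensitive to this pathway, since inherited defects in several of the late sterol enzymes cause craniofacial malformation in humans and mice, and Hedgehog signalling, which patterns the face, depends on sterols.

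The promoters of 4 members are shown because these genes were lower in mutants in the joint comparison given below, and because their windows hold letters that match the sites of the shared regulators. Of the 40 members, 31.0 had an entry in the RefSeq promoter table for GRCm38.p6, which holds 250 bases before and 50 bases after each annotated start. The entries not found were those of *Abcg1*, *Fabp5*, *Fads1*, *Fdft1*, *Fdps*, *Scd1*, *Scd2*, *Sqle* and *Stard4*. Capitals mark the sterol regulatory element (searched as TCACNCCAC), the CCAAT box bound by NF-Y (CCAAT, seen as ATTGG where it lies on the other strand) and the E-box that SREBPs can also bind (CACGTG), each searched on both strands; none of the marked matches overlap each other. All 4 windows are read 5′ to 3′ on the plus strand of GRCm38.p6, at chr13:119690101-119690400 for *Hmgcs1*, chr13:8885356-8885655 for *Idi1*, chrX:72918271-72918570 for *Nsdhl* and chr5:28071162-28071461 for *Insig1*.
Hmgcs1: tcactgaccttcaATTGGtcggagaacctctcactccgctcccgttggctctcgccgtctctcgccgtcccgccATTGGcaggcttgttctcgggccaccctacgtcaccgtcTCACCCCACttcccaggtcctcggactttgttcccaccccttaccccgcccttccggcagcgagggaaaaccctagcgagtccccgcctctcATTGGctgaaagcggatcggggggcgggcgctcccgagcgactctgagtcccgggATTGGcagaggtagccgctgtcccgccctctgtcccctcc
Idi1: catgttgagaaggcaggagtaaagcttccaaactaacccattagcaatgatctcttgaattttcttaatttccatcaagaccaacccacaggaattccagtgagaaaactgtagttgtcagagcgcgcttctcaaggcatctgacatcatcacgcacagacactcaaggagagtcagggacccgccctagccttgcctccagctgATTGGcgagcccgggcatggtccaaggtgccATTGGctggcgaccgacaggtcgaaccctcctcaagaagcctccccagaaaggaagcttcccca
Nsdhl: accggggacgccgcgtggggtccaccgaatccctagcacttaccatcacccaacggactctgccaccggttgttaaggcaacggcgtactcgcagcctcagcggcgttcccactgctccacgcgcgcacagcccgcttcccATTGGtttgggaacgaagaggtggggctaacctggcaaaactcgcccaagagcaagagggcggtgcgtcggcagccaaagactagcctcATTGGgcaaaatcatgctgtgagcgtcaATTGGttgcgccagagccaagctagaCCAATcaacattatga
Insig1: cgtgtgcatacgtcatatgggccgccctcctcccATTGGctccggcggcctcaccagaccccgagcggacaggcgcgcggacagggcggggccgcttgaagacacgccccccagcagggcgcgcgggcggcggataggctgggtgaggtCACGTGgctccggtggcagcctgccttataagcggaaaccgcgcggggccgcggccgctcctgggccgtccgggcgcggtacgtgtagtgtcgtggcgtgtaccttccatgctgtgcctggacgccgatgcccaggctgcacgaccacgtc

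The *Hmgcs1* window held the sterol regulatory element at -137, counted from the start, and 4 CCAAT boxes, at -237, -176, -45 and 11. *Nsdhl* held 4 CCAAT boxes, at -109, -20, 9 and 35, and *Idi1* held 2, at -45 and -14. *Insig1* had 1 CCAAT box at -216 and 1 E-box at -101. Counting a gene once if any of its windows matched, CCAAT was found for 25 of 31 members (80.6%), against 43.1% of the 10846 tested genes with an entry and 41.1% of all 27025 genes with one. CACGTG was found for 7 of 31 members (22.6%), against 11.45% of the tested genes, and the sterol regulatory element as spelled here for 1 of 31 (3.23%), against 1.37%. The CArG box was found for 0 of 31 members, against 1.63% of the tested genes. Of the 8 members with an entry that were called lower in the joint comparison, 6 held CCAAT and 1 held CACGTG. The sterol regulatory element was found for 1 of these 8 and the CArG box for 0. These are matches of letters in 300-base windows and no factor binding was measured.

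Library totals of the deposited gene values, which the authors had already scaled for depth, lay between 10.2 and 11.2 m with a median of 10.7 m, so they no longer show how deeply a library was sequenced and the precision of each value below is judged from the spread between embryos. *Srf* stood at 34.7 to 75.2 TPM in control FNPs and 11.8 to 14.7 TPM in mutant FNPs, and at 34.4 to 65.9 TPM and 10.8 to 14.1 TPM in the mandible, so that no library went against its genotype label (two-sided exact permutation p = 0.0286 in either tissue, the smallest that 70 arrangements of 4 against 4 embryos allow). The tissue labels were checked with *Six3*, a forebrain and nasal placode gene, at 21.3 to 29.4 TPM in the FNP and at most 0.209 TPM in the mandible, and *Hand2*, a mandibular arch gene, at 167 to 206 TPM in the mandible and at most 1.36 TPM in the FNP. All 10 markers of neural crest mesenchyme were detected, with a sum of 1765 to 2492 TPM in control and 1857 to 2245 TPM in mutant FNPs. The summed Y-linked genes *Ddx3y*, *Eif2s3y*, *Kdm5d* and *Uty* stood at 119 to 144 TPM in embryos 1, 3, 4, 6 and 7 and at 0.326 to 0.963 TPM in embryos 2, 5 and 8, so that among controls the presence of Cre and of Y-linked RNA cannot be told apart.

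In both tissues together, the sterol and fatty acid genes were lower in mutants more often than higher. With tissue and litter as covariates, 12 of the 40 members were called lower and 0 were called higher (limma, with p-values adjusted by Benjamini-Hochberg over all 14630 genes tested and a threshold of 0.05), beside 1.04% of all genes called lower and 0.294% called higher. That fit treats the FNP and the mandible of an embryo as independent libraries although both come from 1 animal. With the embryo as a block 9 of the 12 were called, beside 0.649% of all genes called lower. With the tissues of an embryo averaged 1 was called, beside 19 of 14630 genes called lower. At an unadjusted limma p under 0.05, 21 members were lower and 2, *Abca1* and *Abcg1*, were higher, beside 9.84% and 7.58% of all genes. The median log2 fold change was -0.15 over the members and 0.00 over all genes tested, and 34 of 40 members lay below 0, against 49.3% of all genes. The changes were small: the 12 called members stood at 73.6% (*Insig1*) to 89.9% (*Fads2*) of their control level, a fold change taken from log2(value + 0.5). With libraries scaled to equal totals in place of the authors' size factors, 10 members were called lower and 0 higher, beside 0.656% and 0.731% of all genes. Leaving out 1 embryo at a time gave 4 calls (without control 1), 5 (without control 2), 7 (without mutant 4 or mutant 6) and 8 to 13 otherwise. Over all 14630 genes, 37 were called lower without control 1, 37 without control 2, 56 without mutant 4 and 261 without mutant 6. Leaving out any other embryo gave 103 to 149 such genes. All 40 members passed the filter on low values in every comparison. In whole tissue, fewer cells of a type and less RNA per cell cannot be told apart.

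Markers of other cell types were compared between the genotypes as well. The 11 erythroid genes summed to 13243 to 17645 TPM in control and 15315 to 26690 TPM in mutant FNPs (exact permutation p = 0.0571). In the mandible they summed to 13504 to 18761 and 11777 to 24506 TPM (exact permutation p = 0.943). Of these genes, 0 of 11 were called in either tissue or in both together. At an unadjusted limma p under 0.05, 7 of 11 were higher in the FNP, 0 in the mandible and 2 in both together. The shares of all genes were 4.92%, 3.85% and 7.58%. For the 10 macrophage genes the sums were 26.2 to 39.8 and 36.1 to 41.8 TPM in the FNP (exact permutation p = 0.229). In the mandible they were 22.1 to 29.3 and 28.7 to 35.0 TPM (exact permutation p = 0.114). In both tissues together 1 of 9 tested genes was called higher, beside 0.294% of all genes. At an unadjusted limma p under 0.05, 2 of 8 tested macrophage genes were higher in the FNP and 2 of 8 in the mandible, beside 4.92% and 3.85% of all genes. The 9 skeletal muscle genes were low in the FNP, with sums of 3.85 to 5.89 TPM in controls and 7.03 to 9.93 TPM in mutants (exact permutation p = 0.0286). Most of the mean sums of 5.09 and 8.17 TPM was *Tnnt1*, at 3.54 and 5.59 TPM. *Tcf21* and *Mymk* were at 0 in every FNP library, and *Myod1* had means of 0.0378 TPM in controls and 0.0765 TPM in mutants. In the mandible the muscle sums were 32.7 to 102 TPM in controls and 43.5 to 109 TPM in mutants (exact permutation p = 0.657). Sums of the surface epithelium, neuron, endothelium and neural crest mesenchyme lists overlapped between the genotypes in either tissue. The endothelium sum in the FNP had an exact permutation p of 0.0857. At an unadjusted limma p under 0.05 in both tissues together, 4 of 9 endothelium genes were higher, beside 7.58% of all genes. Higher were also 2 of 10 mesenchyme, 2 of 13 epithelium and 0 of 11 neuron genes, and 1 epithelium gene was lower. None of these lists had a called gene. The part of these cell types in the changes below was not tested.

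**Figure D1:**
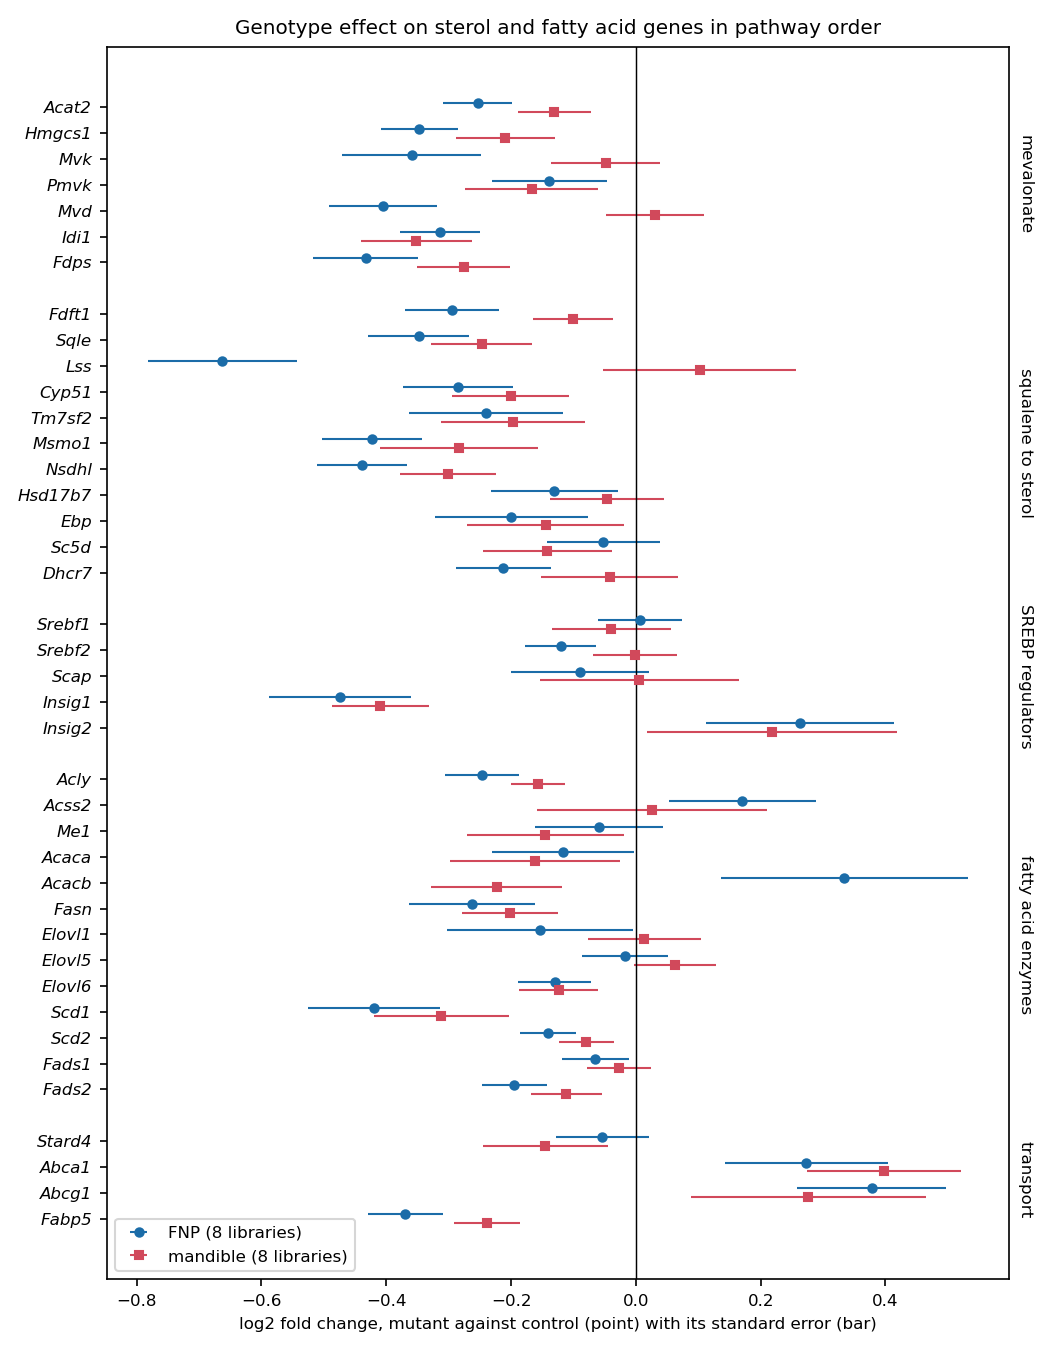
Log2 fold change of mutants against controls (horizontal axis) for the 40 genes in pathway order from top to bottom, in the FNP (blue circles) and the mandible (red squares), 4 control and 4 mutant libraries each; bars are standard errors of the limma fit. Points of the mevalonate and sterol segments lie left of 0 in the FNP for all 18 genes, with *Lss* at -0.66, while *Abca1* and *Abcg1* lie right of 0 in both tissues.

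All 7 enzymes of the mevalonate segment had a fold change below 0 in both tissues together and 4 of them were called lower, *Acat2*, *Hmgcs1*, *Idi1* and *Fdps*; the segment's median log2 fold change was -0.20. *Acat2*, a cytosolic thiolase that joins 2 acetyl-CoA units at the entry of the pathway, had 184, 186, 193 and 173 TPM in the FNPs of controls 1, 2, 7 and 8 and 167, 151, 154 and 155 TPM in mutants 3, 4, 5 and 6. Its mandible levels were 181, 170.5, 158 and 176 TPM in controls and 168, 151, 161 and 154 TPM in mutants. Every mutant FNP was below every control FNP, while the mandible groups overlapped, with control 7 under mutants 3 and 5. *Acat2* had a joint log2 fold change of -0.19 (standard error 0.0417, limma adjusted p = 0.0310), and was not called with the embryo as a block (adjusted p = 0.0603).

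*Hmgcs1* encodes the cytosolic HMG-CoA synthase, and at a control mean of 224 TPM it was the most abundant sterol enzyme among the members. FNP levels were 266, 269, 247 and 235 TPM in controls 1, 2, 7 and 8 and 237, 202, 209 and 185 TPM in mutants 3, 4, 5 and 6. In the mandible they were 208, 195, 182 and 187 TPM and 200.5, 155, 171 and 161 TPM, in the same order of embryos. Only mutant 3 reached into the control range, in either tissue. *Hmgcs1* fell by 0.28 on the log2 scale in both tissues together (standard error 0.0526, limma adjusted p = 0.0164).

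*Idi1*, the isomerase that readies the isoprenoid unit for chain growth, stood at 88.1, 92.4, 71.4 and 72.8 TPM in FNPs of controls 1, 2, 7 and 8 and at 74.1, 66.3, 70.5 and 58.9 TPM in those of mutants 3 to 6. Mandibles held 71.5, 67.5, 55.7 and 61.4 TPM in controls and 55.1, 45.1, 55.8 and 47.7 TPM in mutants. Second-litter controls were the lower pair in either tissue, so the groups overlapped although the only second-litter mutant, embryo 6, was below both of them. The joint log2 fold change was -0.33 (standard error 0.0522, limma adjusted p = 0.00375), and the tissues gave nearly the same estimate, -0.31 in the FNP and -0.35 in the mandible.

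*Fdps* makes farnesyl diphosphate, the last product shared by sterols and other isoprenoids. Controls 1, 2, 7 and 8 had 207, 232, 207 and 181 TPM in the FNP, and mutants 3 to 6 had 174, 144, 174 and 146 TPM, with every mutant below every control. Mandible levels were 198, 185, 172 and 185 TPM in controls and 175, 144, 172 and 138 TPM in mutants, where mutant 3 lay above the lowest control. The fall was 0.35 on the log2 scale (log2 fold change -0.35, standard error 0.0591, limma adjusted p = 0.00666).

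Of the other mevalonate enzymes, the kinases *Mvk* and *Pmvk* and the decarboxylase *Mvd* had joint log2 fold changes of -0.20, -0.15 and -0.19, none called (limma adjusted p = 0.202, 0.267 and 0.233). In the FNP alone *Mvd* averaged 38.9 TPM ± 2.42 (SD, n = 4) in controls and 31.2 TPM ± 4.22 (SD, n = 4) in mutants, and in the mandible 33.0 TPM ± 0.923 and 34.6 TPM ± 3.92.

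All 11 enzymes from squalene to cholesterol also had joint fold changes below 0, with a median of -0.22 on the log2 scale, and 3 were called lower, *Sqle*, *Msmo1* and *Nsdhl*. *Sqle*, squalene epoxidase, a control point of the pathway, had 109, 117, 110.1 and 103 TPM in FNPs of controls 1, 2, 7 and 8 and 106, 83.0, 89.2 and 80.2 TPM in those of mutants 3 to 6. In mandibles it had 87.7, 89.3, 89.2 and 92.2 TPM in controls, a narrow range, and 87.8, 68.0, 77.3 and 72.5 TPM in mutants. Mutant 3 reached the control range in either tissue and the other 3 mutants did not. Its log2 fold change in both tissues together was -0.30 (standard error 0.0600, limma adjusted p = 0.0235).

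*Msmo1*, the sterol C4-methyl oxidase, was the more variable of the C4-demethylation genes. FNP values were 81.0, 75.3, 62.6 and 63.3 TPM in controls 1, 2, 7 and 8 and 64.3, 58.0, 67.1 and 40.5 TPM in mutants 3 to 6, and mandible values were 56.2, 59.4, 52.3 and 48.6 TPM in controls and 64.7, 43.3, 44.1 and 37.5 TPM in mutants. Mutant 6 was far below every control in both tissues, whereas mutant 3 had the highest mandible level of all 8 embryos. The joint log2 fold change of -0.35 (standard error 0.0801) passed the threshold narrowly (limma adjusted p = 0.0403) and did not pass with the embryo as a block (0.0657).

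*Nsdhl*, the X-linked dehydrogenase that acts with *Msmo1* to remove the C4 methyl groups, was lower in every mutant than in any control of its tissue. In the FNP it was at 34.1, 33.8, 31.6 and 31.1 TPM in controls 1, 2, 7 and 8 and at 27.4, 23.3, 23.7 and 23.9 TPM in mutants 3 to 6. Mandible levels were 27.6, 24.2, 23.1 and 23.4 TPM in controls and 22.1, 19.6, 20.7 and 19.2 TPM in mutants. Mutant 3 was the highest of the mutants in both tissues and still did not overlap the controls. The joint log2 fold change was -0.37 (standard error 0.0513, limma adjusted p = 0.00107), a level of 77.4% of control. Among embryos with Y-linked RNA the mutant mean was 75.7% of control in the FNP and 80.1% in the mandible, and among embryos without it 73.1% and 87.1%, the latter resting on 1 mutant.

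*Lss* makes lanosterol, the first sterol, from squalene epoxide, and it had the lowest FNP estimate of the members. Control FNPs 1, 2, 7 and 8 held 46.2, 32.8, 26.5 and 23.9 TPM and mutant FNPs 3 to 6 held 23.4, 21.8, 22.4 and 19.5 TPM, so that the controls ranged widely and the lowest of them, embryo 8, was just above the highest mutant. In mandibles the values were 24.3, 20.2, 20.6 and 26.1 TPM in controls and 27.5, 23.2, 17.3 and 28.4 TPM in mutants, which overlapped. The log2 fold change was -0.66 in the FNP (standard error 0.120, limma adjusted p = 0.116) and 0.10 in the mandible (standard error 0.155, adjusted p = 0.896), and neither was called. Control 1, with the top value, was in the first litter, whose mutants averaged 57.1% of its controls, against 77.3% for the 1 mutant of the second litter.

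The remaining sterol enzymes were not called. Joint log2 fold changes ran from -0.24 for *Cyp51*, the lanosterol demethylase (limma adjusted p = 0.0631), and -0.22 for the reductase *Tm7sf2* (adjusted p = 0.178) to -0.09 for *Hsd17b7* (adjusted p = 0.507). *Fdft1*, squalene synthase, had -0.20 (adjusted p = 0.0861), and *Dhcr7*, the last reductase before cholesterol, whose loss causes a human malformation syndrome, had -0.13 (adjusted p = 0.325). *Ebp* and *Sc5d*, which act just before *Dhcr7*, had -0.17 and -0.10 (adjusted p = 0.297 and 0.514). Exons of *Cyp51* and *Fdft1* overlap those of *Akap9* and *Ctsb* on the other strand, and *Tm7sf2* shares exon sequence with *Vps51* on its own strand, so reads of these pairs may not have been parted.

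Among the 5 SREBP regulators, *Insig1* alone was called, while *Srebf1*, *Srebf2* and *Scap* stood at 98.9%, 95.9% and 97.1% of control in both tissues together. *Insig1*, a retention protein of the SCAP-SREBP complex and itself a classic SREBP target, had 61.2, 64.3, 51.4 and 46.9 TPM in FNPs of controls 1, 2, 7 and 8 and 59.1, 48.5, 46.9 and 28.2 TPM in those of mutants 3 to 6. Its mandible values were 51.1, 50.9, 37.9 and 39.5 TPM in controls and 43.3, 34.1, 39.9 and 28.6 TPM in mutants. The first litter ran higher than the second in controls and mutants alike, which made the groups overlap in TPM, and mutant 6 was lowest in both tissues. With litter in the model the joint log2 fold change was -0.44 (standard error 0.0718, limma adjusted p = 0.00522), the lowest of the 40 members, and within litters the mutants averaged 82.1% of controls in the first and 57.5% in the second in the FNP, and 76.6% and 73.8% in the mandible.

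*Srebf2*, the SREBP that chiefly drives sterol genes, had 123, 124, 132 and 132 TPM in FNPs of controls 1, 2, 7 and 8 and 130.1, 118, 116 and 114 TPM in those of mutants. In the mandible the levels were 106, 103, 121 and 111 TPM and 116, 106, 97.3 and 114 TPM. The groups overlapped in both tissues and the joint log2 fold change was -0.06 (95% interval -0.16 to 0.04, limma adjusted p = 0.522). *Srebf1*, which chiefly drives fatty acid genes, had 53.3, 52.2, 51.6 and 49.97 TPM in control and 49.6, 52.5, 53.9 and 53.9 TPM in mutant FNPs. Mandible levels of *Srebf1* were 47.3, 47.6, 42.2 and 52.1 TPM in controls and 44.1, 45.0, 53.5 and 43.0 TPM in mutants. These values were interleaved, with a joint log2 fold change of -0.02 (95% interval -0.13 to 0.10, limma adjusted p = 0.904).

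*Scap*, the escort, was at 39.7, 47.4, 41.9 and 42.7 TPM in control and 40.2, 36.6, 41.6 and 39.8 TPM in mutant FNPs, and at 38.4, 46.9, 36.3 and 41.1 TPM and 39.9, 43.8, 30.3 and 45.1 TPM in mandibles, with overlapping groups and a joint log2 fold change of -0.04 (95% interval -0.24 to 0.15, limma adjusted p = 0.848). *Insig2*, the other retention protein, had the opposite sign to *Insig1*. FNPs had 17.2, 13.9, 23.1 and 17.7 TPM of it in control and 19.4, 21.0, 17.5 and 21.8 TPM in mutant embryos, and mandibles had 12.4, 21.5, 18.2 and 15.7 TPM and 17.6, 20.5, 21.9 and 16.8 TPM. Groups overlapped, controls spanned more than mutants in either tissue, and the log2 fold change of 0.24 was not called (95% interval -0.02 to 0.51, limma adjusted p = 0.338). Transcript levels say nothing of the cut, active form of the SREBPs, which was not measured. Exons of *Srebf1* overlap *Rai1* on the other strand.

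Of the 13 fatty acid enzymes, 3 were called lower, *Acly*, *Scd1* and *Fads2*, 10 had joint fold changes below 0, and the median was -0.11 on the log2 scale. *Acly* splits citrate to supply cytosolic acetyl-CoA to fatty acids and sterols alike. FNP levels were 191, 194, 169 and 166 TPM in controls 1, 2, 7 and 8 and 151, 157, 176 and 150.5 TPM in mutants 3 to 6, and mandible levels were 179.6, 179, 156 and 154 TPM and 155, 163, 157 and 146 TPM. Mutant 5 lay inside the control range in the FNP, and in the mandible mutants 3, 4 and 5 overlapped the second-litter controls. In both tissues together the log2 fold change of *Acly* was -0.20 (standard error 0.0351, limma adjusted p = 0.00870).

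*Scd1* and *Scd2* encode stearoyl-CoA desaturases that make monounsaturated fatty acids. *Scd1* had 33.0, 31.96, 36.3 and 31.5 TPM in FNPs of controls 1, 2, 7 and 8 and 28.3, 22.2, 25.7 and 23.8 TPM in those of mutants 3 to 6. Mandible values were 27.0, 25.9, 30.5 and 25.7 TPM in controls and 23.5, 20.0, 23.0 and 20.6 TPM in mutants. No mutant reached any control in either tissue, and the joint log2 fold change was -0.37 (standard error 0.0702, limma adjusted p = 0.0171). *Scd2*, the most abundant of the 40 members at a control mean of 391 TPM, fell less: mutants of either tissue again lay below every control, at 372 to 393 against 406 to 443 TPM in the FNP and 324 to 357.5 against 357.6 to 369 TPM in the mandible, but the log2 fold change of -0.11 was not called (limma adjusted p = 0.0665). These paralogs share sequence, so reads could have been split between them, while *Scd3* and *Scd4* had means of 0.441 and 0.270 TPM.

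*Fads2*, the delta-6 desaturase of polyunsaturated fatty acids, was at 123, 132, 112 and 113 TPM in control FNPs 1, 2, 7 and 8 and 112, 108, 112 and 101 TPM in mutant FNPs 3 to 6. In mandibles it was at 104, 109, 101 and 96.1 TPM and 98.2, 92.4, 99.3 and 94.0 TPM. The FNP groups were apart by less than 1 TPM, and they overlapped in the gene values used for the fits. The mandible groups overlapped. Its joint log2 fold change of -0.15 (standard error 0.0350, limma adjusted p = 0.0419) was the smallest of those called, and the call was lost with the embryo as a block (adjusted p = 0.0688). *Fads1*, the delta-5 desaturase, had -0.05 and was not called (adjusted p = 0.478).

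The enzymes that commit acetyl-CoA to fatty acids were not called. *Fasn*, fatty acid synthase, had a joint log2 fold change of -0.23 (limma adjusted p = 0.0861), and in the mandible its mutants, at 81.1 to 95.5 TPM, lay below its controls, at 97.1 to 115 TPM. The carboxylases *Acaca* and *Acacb* had -0.14 and 0.06 (adjusted p = 0.456 and 0.876), and the elongases *Elovl6*, *Elovl1* and *Elovl5* had -0.13, -0.07 and 0.02 (adjusted p = 0.125, 0.727 and 0.815). *Me1*, which makes NADPH for synthesis, and *Acss2*, which activates acetate, had -0.10 and 0.10 (adjusted p = 0.556 and 0.687). *Elovl1* and *Acss2* overlap exons of *Cdc20* and *Gss* on the other strand.

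The 4 lipid carriers and exporters did not move together. *Fabp5* encodes the epidermal fatty acid binding protein, a carrier in the cytosol. FNPs held 299.7, 321, 253 and 219 TPM in controls 1, 2, 7 and 8 and 230.4, 238, 248 and 189.9 TPM in mutants 3 to 6, and mandibles held 334, 328, 263 and 274 TPM and 287, 260.3, 294 and 231 TPM. Second-litter embryos were lower in either genotype, so the pooled groups overlapped, while within a litter every mutant was below every control in both tissues. The joint log2 fold change was -0.30 (standard error 0.0412) and had the smallest limma adjusted p of the members, 0.000879. The retrocopy *Fabp5l2* was listed at 0 in every library.

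*Abca1* and *Abcg1* export cholesterol from cells and are known targets of the oxysterol receptors LXR, which act when sterol is plentiful. *Abca1* was at 4.0, 3.43, 3.42 and 3.16 TPM in control FNPs 1, 2, 7 and 8 and 3.67, 5.73, 4.78 and 3.87 TPM in mutant FNPs 3 to 6, and at 4.63, 5.22, 4.51 and 5.40 TPM and 5.02, 6.16, 6.08 and 8.26 TPM in mandibles. *Abcg1* was at 7.96, 8.10, 11.49 and 9.81 TPM and 8.92, 11.4, 10.1 and 14.7 TPM in FNPs and 3.12, 3.25, 2.89 and 3.29 TPM and 3.26, 4.50, 3.34 and 4.09 TPM in mandibles. For both genes the groups overlapped and the highest mutant exceeded every control in either tissue. Joint log2 fold changes were 0.34 and 0.33, neither called (limma adjusted p = 0.125 and 0.130). *Stard4*, a sterol carrier inside the cell, had -0.10 (adjusted p = 0.388).

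**Figure D2:**
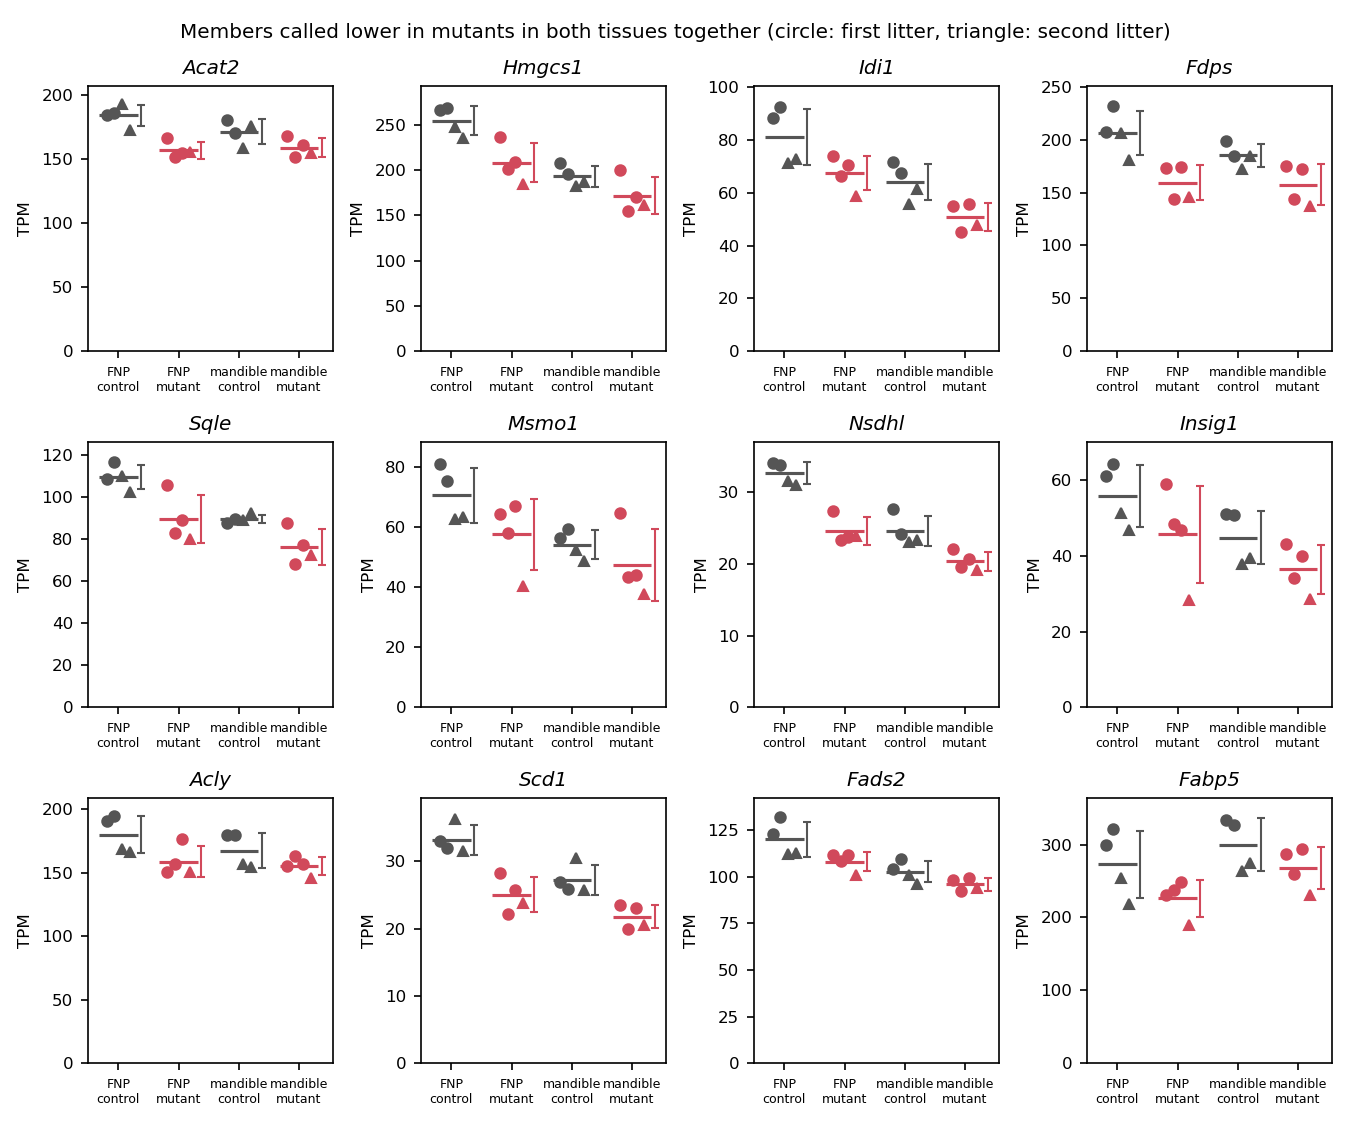
TPM of each embryo (vertical axis, from 0) for the 12 genes called lower in mutants in both tissues together; grey symbols are controls and red symbols mutants, circles the first litter and triangles the second, the horizontal line is the mean and the bar beside it the SD of 4 embryos. *Nsdhl* and *Scd1* mutants lie below every control in both tissues, while *Fabp5* and *Insig1* overlap across litters.

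Taken 1 tissue at a time, with 8 libraries and litter as covariate, 0 of 40 members were called in the FNP, where limma called 0.106% of 14197 genes lower and 0% higher. At an unadjusted limma p under 0.05 there were 20 members lower and 1, *Abcg1*, higher, beside 8.76% and 4.92% of all genes, and 34 members had fold changes below 0 against 51.4% of all genes. The median log2 fold change of the members in the FNP was -0.20. *Fabp5* (-0.37, adjusted p = 0.0882) and *Nsdhl* (-0.44, 0.0882) came nearest to the threshold, followed by *Hmgcs1* (-0.35, 0.116) and *Lss* (given above). When mutant embryo 3 was left out 3 members were called lower, beside 19 of 14197 genes. They were *Hmgcs1* (limma adjusted p = 0.00905), *Nsdhl* (0.0269) and *Sqle* (0.0288), and *Fabp5* was not called (0.104). When control embryo 8 was left out 1 member was called lower, *Fabp5* (limma adjusted p = 0.0226), beside 18 of 14197 genes. In TPM, every mutant FNP lay below every control FNP for 8 members, *Acat2*, *Mvk*, *Fdps*, *Lss*, *Nsdhl*, *Scd1*, *Scd2* and *Fads2*, and above for 0, beside 1.80% and 1.62% of the genes tested. In the gene values used for the fits, the FNP groups of *Mvk* and *Fads2* overlapped.

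In the mandible limma also called 0 of 40 members, beside 0.1% of 14004 genes lower and 0% higher. At an unadjusted p under 0.05 it found 11 members lower and 1, *Abca1*, higher, beside 3.35% and 3.85%, with 31 of 40 below 0 against 47.9% of all genes and a median of -0.14. *Insig1* (-0.41, adjusted p = 0.219) had the smallest p, then *Fabp5* (-0.24, 0.394) and *Idi1* (-0.35, 0.511). Mutants lay below every control in TPM for 4 members, *Nsdhl*, *Fasn*, *Scd1* and *Scd2*, and above for 0, beside 1.04% and 1.33% of the genes tested. *Nsdhl*, *Scd1* and *Scd2* did so in both tissues, beside 0.246% of genes.

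In the separate fits of the tissues, the estimate was lower in the FNP than in the mandible for 29 of 40 members. In the interaction fit on 16 libraries, the difference, mandible minus FNP, was below 0 for 10 of 40 members, beside 45.7% of all genes. It was not called for any member. In the interaction of tissue and genotype limma called 0 of 14630 genes, and 2 members had an unadjusted p under 0.05. *Mvd* had a log2 difference, mandible minus FNP, of 0.41 (standard error 0.116) and *Lss* of 0.60 (standard error 0.254), both with a limma adjusted p of 0.999. Beside them, 2.95% of all genes had such a p in the same direction and 1.41% in the other. The effect was thus not shown to differ between the tissues.

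Position along the pathway showed little order. Over the 18 sterol enzymes, placed from acetyl-CoA to cholesterol, Spearman's rho between step and log2 fold change was 0.307 in the FNP, 0.0526 in the mandible and 0.222 in both together, given as a description over genes that share the same libraries. The mevalonate and later segments had medians of -0.35 and -0.28 in the FNP and -0.17 and -0.14 in the mandible. Across the 40 members, rho between mean control TPM and the joint log2 fold change was -0.455, so that the more abundant members tended to have the lower estimates.

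The embryos differed in the level of these genes against a control mean taken over both litters. Relative to the control mean of the tissue, the median log2 difference of the 7 mevalonate genes in the FNP was -0.11, -0.35, -0.24 and -0.43 in mutants 3, 4, 5 and 6, and 0.01, 0.13, 0.00 and -0.14 in controls 1, 2, 7 and 8. In the mandible it was -0.01, -0.24, -0.09 and -0.26 in the mutants and 0.09, 0.01, -0.08 and -0.01 in the controls. Mutant 3 was nearest to this pooled control mean and mutant 6 farthest in both tissues, and FNP control 8 was lower than FNP mutant 3. Embryo 6 was the only mutant of the second litter, whose controls 7 and 8 were below controls 1 and 2 in both tissues. The place of mutant 6 therefore cannot be told apart from its litter, while mutants 3, 4 and 5 shared the first litter. For the 11 later sterol genes the order was similar, with FNP medians of -0.05, -0.32, -0.22 and -0.40 in mutants 3 to 6. The 13 fatty acid genes varied less, with -0.10, -0.15, -0.09 and -0.15 in the FNP.

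**Figure D3:**
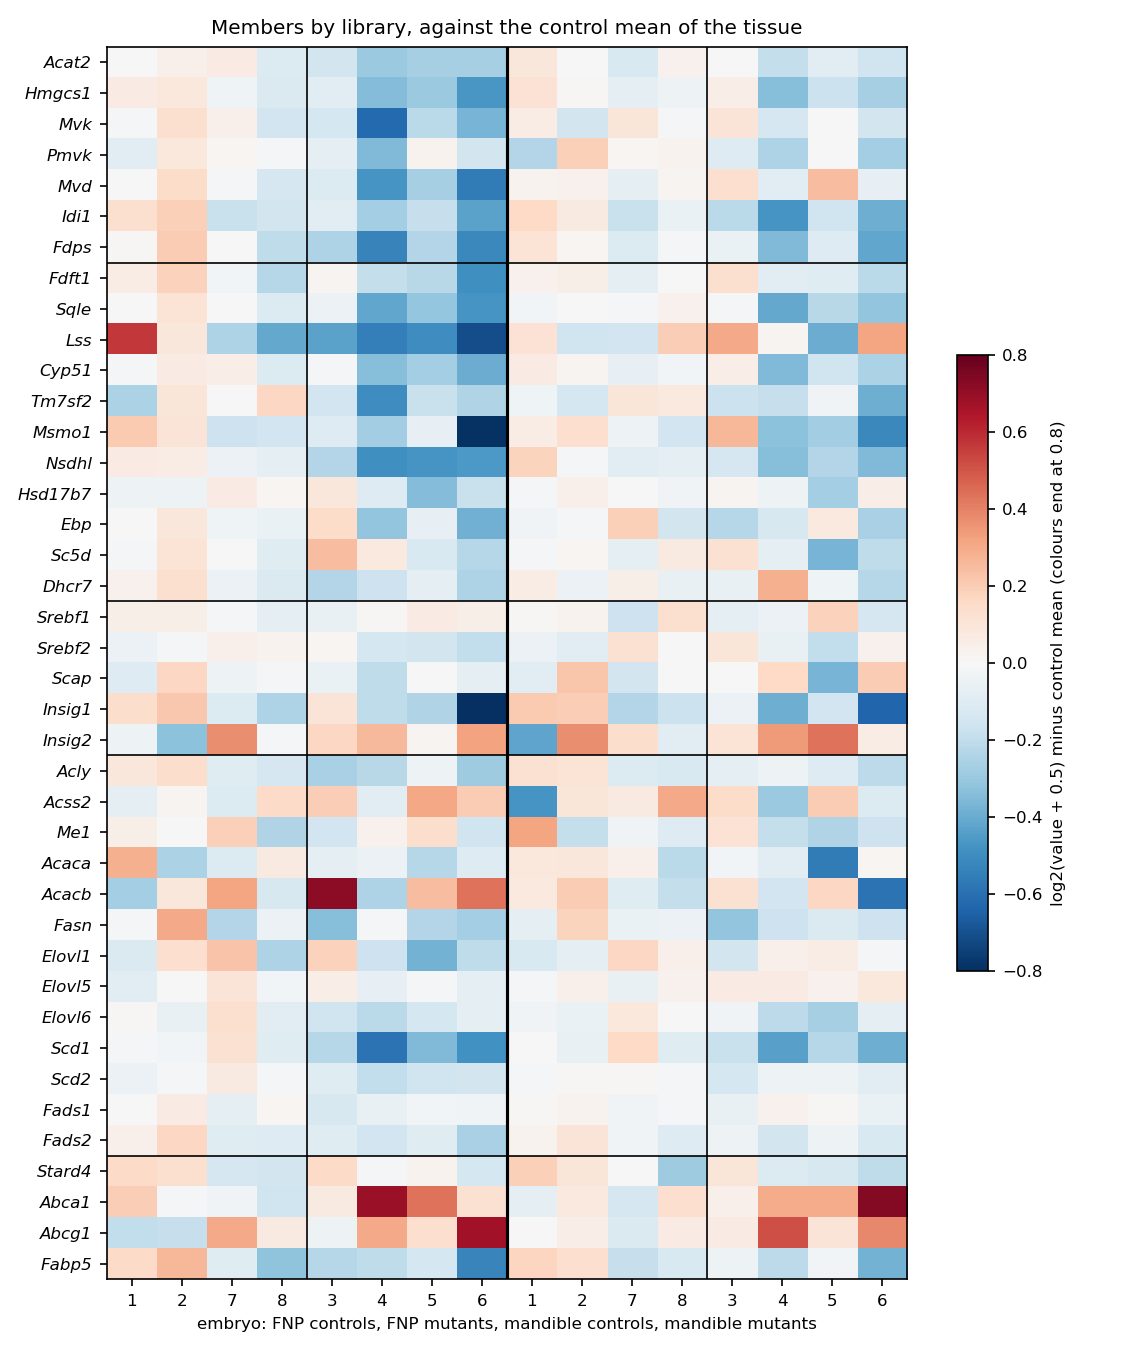
Each of the 40 genes (rows, in pathway order with lines between the role groups) in each of the 16 libraries (columns, by embryo number, with a thick line between FNP and mandible and thin lines between controls and mutants); colour is log2(value + 0.5) minus the control mean of the tissue. Blue, lower values gather in mutants 4, 5 and 6, and mutant 3 is paler, with a mevalonate median of -0.11 in the FNP and -0.01 in the mandible.

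Within the first litter, with 2 controls and 3 mutants, the mutants' mean TPM was below that of the controls for 33 of 40 members in the FNP and 28 of 40 in the mandible. Fitted on that litter alone, the median log2 fold change in the FNP was -0.17 over the members and -0.01 over all genes. In the mandible it was -0.11 and 0.00. Within the second litter, with 2 controls and 1 mutant, the mutant was below the control mean for 33 of 40 in either tissue. There the members reached up to 138% of control TPM in the FNP and 167% in the mandible. The 12 called members averaged 73.1% to 86.8% of control in the FNP and 74.8% to 91.2% in the mandible in the first litter, and 57.5% to 89.8% and 73.3% to 95.4% in the second. These 12 were chosen on the same libraries, so their own direction within a litter was close to fixed. The mutant mean lay below the means of both the controls with Cre and the controls without Cre for 31 of 40 members in the FNP and 27 of 40 in the mandible. The share of all genes below in the same way was not counted, here or for the counts within a litter. With the controls carrying Cre alone 2 of 40 members were called lower in the joint comparison, *Fabp5* and *Nsdhl*, beside 23 of 14630 genes. At an unadjusted limma p under 0.05, 18 members were lower, beside 5.73% of all genes. In that fit 32 of 40 members lay below 0, with a median log2 fold change of -0.17. With the Cre-free controls alone 0 members were called, beside 29 of 14630 genes called lower. At an unadjusted limma p under 0.05, 19 members were lower, beside 6.21% of all genes. There 34 of 40 members lay below 0, with a median of -0.16. Each of these fits held 2 of the 4 control embryos, so the kind of control and the number of libraries changed together.

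In the fit with the embryo as a block, the correlation between the tissues of an embryo was 0.118, and 0.649% of all genes were called lower and 0.123% higher. *Nsdhl* (adjusted p = 0.00213), *Fabp5* (0.00216), *Idi1* (0.00695) and *Insig1* (0.00913) were the called members with the lowest p-values in that replicate block. When the tissues of an embryo were averaged, leaving 8 values, the 1 member called was *Fabp5* (limma adjusted p = 0.0227). Over all 14630 genes 19 were called lower in that fit.

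Between the tissues, 20 of 40 members were higher in the FNP and 2 were higher in the mandible (limma, 16 libraries, litter and genotype as covariates), beside 17.8% and 11.9% of all genes, and the median log2 difference, mandible minus FNP, was -0.17. The export pump *Abcg1* differed most, with 7.96, 8.10, 11.49 and 9.81 TPM in the FNP of controls and 3.12, 3.25, 2.89 and 3.29 TPM in their mandibles, and a log2 difference of -1.55 (standard error 0.101, adjusted p = 2.76e-09). *Me1* was at 26.6, 25.8, 29.4 and 21.9 TPM in FNPs of controls 1, 2, 7 and 8 and 23.1, 26.6, 28.5 and 23.2 TPM in those of mutants 3 to 6, and at 14.8, 10.5, 11.8 and 11.1 TPM and 12.9, 10.6, 10.1 and 10.7 TPM in mandibles. No mandible reached any FNP for *Me1*, for a log2 difference of -1.15 (adjusted p = 5.61e-09), nor for *Abcg1*.

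Several sterol enzymes were lower in the mandible on this log2 scale, among them *Idi1* (-0.36, adjusted p = 2.55e-05), *Nsdhl* (-0.34, 4.76e-05), *Hmgcs1* (-0.33, 6.78e-05) and *Msmo1* (-0.33, 0.00380). *Abca1* (0.50, 0.00107) and *Fabp5* (0.20, 0.00107) were the members higher in the mandible. The first enzyme *Acat2*, *Fdps*, *Acly* and *Fasn* were not called between tissues, at -0.04, -0.08, -0.06 and 0.05. Surface epithelium markers also differed by tissue, with 8 of 13 higher in the FNP and 5 of 13 higher in the mandible, and 8 of 11 neuron markers were higher in the FNP; their part in these differences was not tested.

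**Figure D4:**
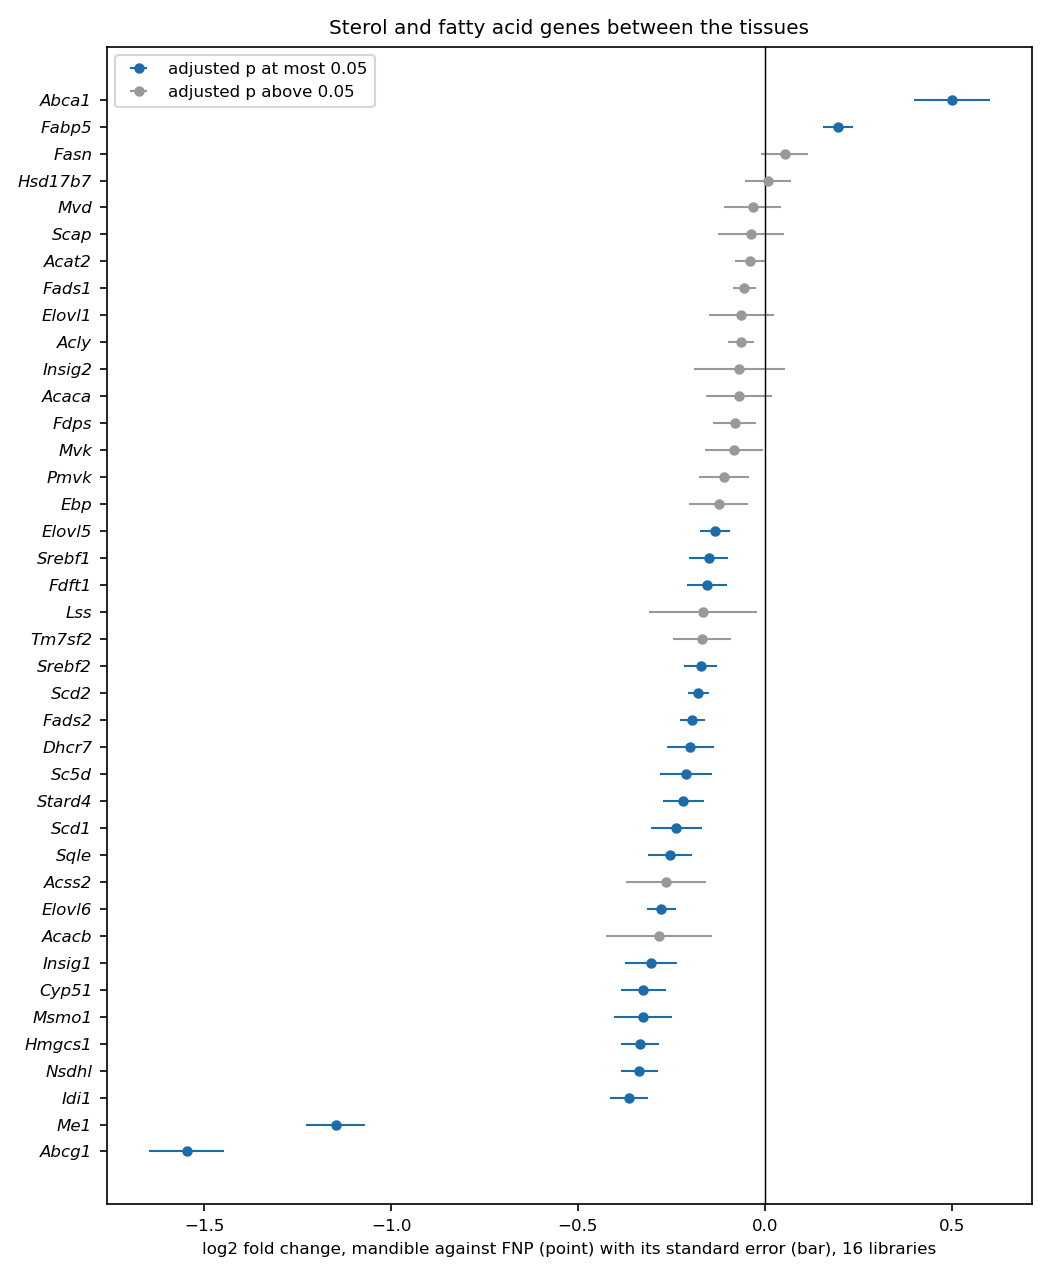
Log2 difference between mandible and FNP (horizontal axis, points, with standard errors as bars; 16 libraries) for the 40 genes in order of size; blue points have a limma adjusted p of at most 0.05 and grey points do not. *Abcg1* at -1.55 and *Me1* at -1.15 lie far to the left of the other genes, and *Abca1* at 0.50 and *Fabp5* at 0.20 are the blue points right of 0.

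Beyond the 40 members, 45 further genes of sterol and fatty acid handling (cofactor supply, uptake, storage, elongation and regulators) were looked at as a list. In both tissues together 37 of them were tested, 4 were called lower, beside 1.04% of all genes, and 0 higher. Fold changes below 0 were seen in 24 of 37, beside 49.3% of all genes, with a median of -0.04. *Cyb5b*, a cytochrome b5 that hands electrons to desaturases and other membrane enzymes, had a log2 fold change of -0.14 (limma adjusted p = 0.0243), and *Elovl2*, an elongase of polyunsaturated fatty acids, had -0.21 (adjusted p = 0.0265). Fitted on 1 tissue at a time, limma called 0 of them in either tissue, with 8 lower and 0 higher in the FNP at an unadjusted p under 0.05, beside 8.76% and 4.92% of all genes, and 4 lower and 3 higher in the mandible, beside 3.35% and 3.85%.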

How the data were processed

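PolyA RNA of 16 libraries was sequenced as paired ends. Transcripts had been quantified by the authors (Salmon 1.5.0, build mm10) and taken to gene level in sleuth 0.30.0-4. The deposited gene values are a signal, estimated counts that the authors had corrected for the size of each library, not whole reads, so no count model was fitted, although the design had allowed for one. The deposited TPM were scaled likewise by the authors and sum to 0.921 to 1.07 m per library. Columns of the authors' own comparisons (fold changes, p-values) were not used. Strand use in the quantification is not given in the sources used here.

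Samples were grouped by genotype and tissue from the labels and by the deposited litter table. Only genes that reached 10 in 4 or more libraries were tested, by limma 3.58.1 (R 4.3.3, variance trend on) of log2(value + 0.5) with litter as covariate, and tissue in the joint model; this scale understates the change of low genes. Percent of control is 2 raised to the log2 fold change. A gene was called where its p, adjusted by Benjamini-Hochberg over all genes, was 0.05 or less. For single TPM levels an exact permutation test, two-sided, was used. Each embryo is a separate animal that gave both tissues, whose deviations from group means correlated by 0.0993 to 0.234 over 14630 genes. The fits were tested on simulated data. Promoters are from RefSeq (GRCm38.p6), exon overlaps from GENCODE M21, and figures from matplotlib 3.10.9.

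Values per embryo are given for members called in a genotype comparison, the 6 with the smallest p in the FNP and 3 in the mandible, the 3 most different each way between tissues, and the SREBP regulators; *Scd2* and *Mvd* were added after their values were seen. The members and all lists were chosen with earlier results of these data known. Some genes that the rule takes are not reported here. Alternatives were pseudocounts, filters, scalings, TPM, covariates, control subsets, the embryo block and leaving out each embryo.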

Additional observations from a re-analysis of the deposited data

Results flagged for a closer look

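Among the 80 groups of 4 embryos formed by 20 members, 2 tissues and 2 genotypes, 1 had a value set apart from the other 3 by Dixon's criterion, which chance alone gives in about 5% of groups. *Nsdhl* in mutant FNPs was at 27.4 TPM in embryo 3, against 23.9 TPM in the nearest mutant, a gap of 0.862 of the group's range. That value was still below every control FNP.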

How the results depend on the processing

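No called member changed direction under a setting that was run, whereas of those not called 6 did so in both tissues together, 7 in the FNP, 13 in the mandible, 13 in the interaction and 4 between tissues. The called members were chosen on the same libraries, so their own direction under these settings was close to fixed. In both tissues together, 12 members were called lower with the settings of the report, 12 or 13 with other pseudocounts, other filters on low values or TPM, 9 with quantile normalization, 8 without the variance trend and 8 with the sex of the embryo, read from Y-linked RNA, as a further covariate, a setting chosen after seeing the data. Over all 14630 genes, 94 were called lower with quantile normalization, 70 without the variance trend and 73 with the sex covariate. Only 2 members were called without the litter term, beside 23 of all genes called lower. With the Cre-carrying controls alone 2 were called, beside 23 genes, and with the Cre-free controls alone 0, beside 29 (both have fewer libraries). In the first litter alone 4 were called, beside 126 genes. With the tissues of an embryo averaged 1 was called, beside 19 genes, and with the embryo as replicate block 9, beside 95. Leaving out each embryo gave 4 to 13 calls, with 4 without control 1, 5 without control 2, 7 without mutant 4 and 7 without mutant 6. Over all 14630 genes, 37, 37, 56 and 261 were called lower in those 4 fits. *Fabp5* was called in 21 of 23 settings and *Nsdhl* in 21 of 23, but *Fads2* and *Msmo1* in 6 of 23 each, *Acat2* in 8 and *Sqle* in 10. Scaling libraries to equal totals gave 10 calls, moved the median of all genes by 0.04 on the log2 scale and turned the balance of calls over all genes, from 152 lower and 43 higher to 96 lower and 107 higher. In the FNP alone 0 to 3 members were called when an embryo was left out, and in the mandible and the interaction 0. In the FNP these were 3 without mutant 3, beside 19 of 14197 genes called lower, and 1 without control 8, beside 18. Between the tissues, 16 to 19 members were higher in the FNP with an embryo left out, and 1 rather than 2 was higher in the mandible without the litter term, where *Fabp5* was lost (adjusted p = 0.125). Where not given, the cause of these changes was not tested.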
